A study of Danio rerio with 24 samples.

Results

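The transcripts of 5 genes of the immediate early stress response were followed through the whole kidney marrow (WKM) of adult zebrafish: nr4a1 (ENSDARG00000000796), fosab (ENSDARG00000031683), egr1 (ENSDARG00000037421), junba (ENSDARG00000074378) and atf3 (ENSDARG00000007823). They are 5 of the 23981 genes in the deposited tables and were chosen by name, with results of these data already known, so that their levels are described first and the tests below are not independent evidence for the choice. All values come from 1008 barcodes, each taken as 1 cell, that held at least 1500 transcripts in the fuller 96 barcodes of each of 24 single-cell libraries.

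Immediate early genes are switched on within minutes of a stimulus, without new protein synthesis, and their messages decay quickly. Growth factors, antigen receptor signals and infection induce them in living tissue, and cutting, dissociating or warming a tissue induces them as well. In blood cells the same transcription factors also have steady roles in lymphocyte activation and in the maturation of macrophages and neutrophils.

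The libraries came from fish 3 months of age of a mixed Tüpfel long fin and Ekkwill background, 8 libraries for each of 3 genotypes. Homozygous IT325 fish carry a chemically induced nonsense mutation of ikzf1, which encodes the lymphoid transcription factor Ikaros, and lose the C-terminal pair of zinc fingers but keep the DNA binding ones; homozygous fr105 fish carry a CRISPR/Cas9 deletion within the gene that spares 1 of the DNA binding zinc fingers, the N-terminal one; the controls were wild-type. The kidney, the site of adult blood formation in fish, was teased through a mesh in ice-cold buffer and cells were sorted by light scatter into plates, so that no antibody or transgene chose the cells. The labels divide the libraries of each genotype into sets named P1 and P2, with 4 libraries each, without saying what the names stand for or whether the libraries are separate fish; p-values therefore measure the spread between libraries, which may be technical, and they are too small if a set was 1 fish or 1 sort. Genotype and sequencing lane cannot be told apart, since the 8 libraries of a genotype shared a lane, and the same holds for anything else done genotype by genotype.

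The libraries used held 103585 to 545086 transcripts, with 359 cells from IT325, 304 from fr105 and 345 from wild-type fish. Depth differed between the genotypes: the median cell of a library held on average 6344 transcripts in IT325, 5179 in fr105 and 3725 in wild-type. For the part of depth in the differences between genotypes, every cell was thinned to 1500 transcripts. Shares or fits from such cells are given for some of the differences, and not every member had enough counts there for a test. Transcripts of ikzf1 itself were at 104 to 206 CPM (transcripts of a gene scaled to a library total of 1000000) in IT325 libraries and 102 to 183 in fr105 libraries, against 25.3 to 85.0 in wild-type libraries; a 3′ tag does not read either lesion, so this checks no label. Transcripts on the emptier 96 barcodes made up 0.709% to 7.09% of a library.

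All 5 transcripts were sparse and uneven between cells. The most often detected member was junba, which encodes a JunB-type partner of the AP-1 dimer, with 1508 transcripts in 425 cells (42.2%). Next came fosab, which encodes the c-Fos partner of AP-1, with 1607 transcripts in 408 cells (40.5%). The zinc finger activator gene egr1 had 548 transcripts in 148 cells (14.7%), and nr4a1, which encodes an orphan nuclear receptor known in mammals as a marker of antigen receptor signalling, had 502 transcripts in 152 cells (15.1%). The stress-inducible repressor gene atf3 had 213 transcripts in 114 cells (11.3%).

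The transcripts were concentrated in few cells. The 100 cells with the most held 89.6% of the nr4a1, 91.2% of the egr1 and 93.4% of the atf3 transcripts, but 65.8% of the fosab and 62.1% of the junba transcripts. A cell that had any nr4a1, fosab, egr1 or junba had a median of 2 of them after rounding, and the highest cell held 50.3 fosab transcripts. Some members also shared cells: among cells thinned to equal depth, 58 of the 80 with egr1 also held fosab (72.5%), against 19.6% of the cells without egr1, and 41.1% of the cells with nr4a1 held egr1, against 5.35% of the cells without nr4a1. In wild-type P2 cells alone, 77.8% of the cells with egr1 held fosab, against 38.7% of those without. In the same cells atf3 was found in 12.5% of those with nr4a1, against 17.0% without. With fosab the atf3 share was 18.3%, against 13.7% without. Within neutrophil-like cells egr1 was shared little: 3 of the 11 cells with egr1 held fosab (27.3%), against 19.2% of those without, and 3.57% of the cells with nr4a1 held egr1, against 2.18% of those without. There fosab and junba shared cells more often, junba being found in 37.2% of the cells with fosab, against 17.9% of those without. At full depth, 15 cells held all 5 members, of which 11 were macrophage-like, and 13 came from set P2 of the wild-type. These shares pool cells of all libraries and are descriptions that were not tested.

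The limit of 1500 transcripts left out barcodes that also held these transcripts. In the 99 barcodes with 1500 to under 2000 transcripts, nr4a1 stood at 196, fosab at 566, egr1 at 225, junba at 173 and atf3 at 34.6 CPM. In the 122 barcodes just under the limit, with 1000 to under 1500 transcripts, the same members stood at 99.5, 524, 159, 172 and 13.3 CPM.

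The level of each member differed between classes of cell. Classes were rebuilt by clustering, leaving out the members and the other immediate early transcription factors, and were named from marker genes; class values are transcripts per 10,000 transcripts summed over the cells of a class, with a 95% Poisson interval that covers counting error only, and no class was tested against another. Names rebuilt in this way need not match those of the study.

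With sets and genotypes pooled, fosab, egr1 and nr4a1 were highest in T cell-like cells, a class of 23 cells from 6 wild-type libraries. Their fosab level was 36.2 per 10,000 (its interval is drawn in the plot of levels by class), egr1 was at 18.8 and nr4a1 at 9.63, while no atf3 transcript was counted. In the 41 B cell-like cells, 37 of them wild-type, fosab was at 8.65, egr1 at 5.34 and nr4a1 at 3.22. The order of these 3 members, fosab above egr1 above nr4a1, was the same in the pooled T cell-like, B cell-like and macrophage-like cells. The T cell-like cells were mostly from P2, and 24 of the 67 macrophage-like cells were wild-type. In P1 no nr4a1 was counted in T cell-like cells, while wild-type macrophage-like and neutrophil-like cells held some. In wild-type P2, macrophage-like cells stood over B cell-like cells in nr4a1 and fosab, and their nr4a1 stood over their egr1.

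In contrast, junba and atf3 were highest in macrophage-like cells among the named classes. The 67 macrophage-like cells had 7.82 junba and 0.779 atf3 transcripts per 10,000, and the 486 neutrophil-like cells had 2.25 junba and 0.465 atf3. B cell-like cells had 1.19 junba and 0.169 atf3. The junba level of T cell-like cells, drawn in the plot of levels by class, was not under that of neutrophil-like cells. In neutrophil-like cells egr1 was close to absent (0.129 per 10,000), with nr4a1 at 0.394 and fosab at 1.27. The 92 erythroid-like cells were low for every member, from 0.0257 for atf3 to 0.496 for junba, and the 36 kidney tubule-like cells, a class from outside the blood, held fosab at 1.9 and no nr4a1 or atf3.

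Cells of 2 unnamed clusters also carried the fosab, egr1 and nr4a1 pattern. Cluster 5, whose 76 cells had 7 of 9 progenitor markers but 5 macrophage markers as well, had fosab at 3.54, egr1 at 1.47 and nr4a1 at 1.23 per 10,000. Cluster 16, 21 cells with some innate lymphocyte and T cell markers, had fosab at 9.63, egr1 at 3.48 and nr4a1 at 1.64.

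**Figure D1:**
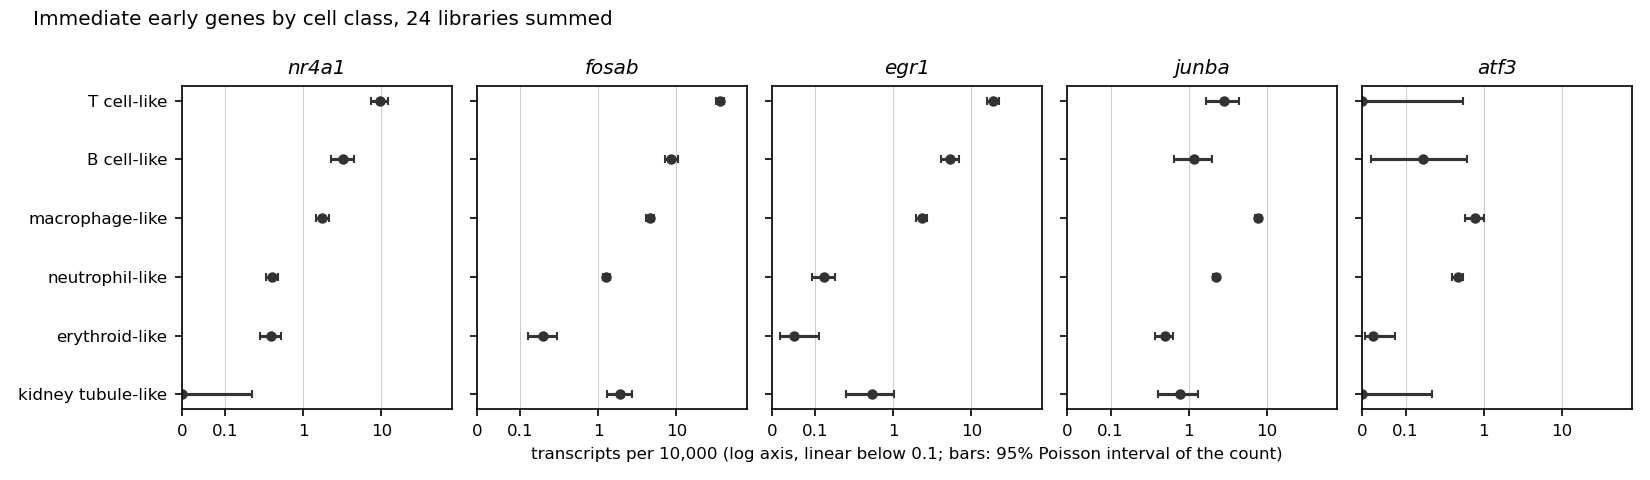
Level of each member in 6 named cell classes, in transcripts per 10,000 on an axis that is logarithmic above 0.1 and linear below it. Points are the sum over all cells of a class in 24 libraries, with genotypes and sets pooled, and bars the 95% Poisson interval of the count. The points for nr4a1, fosab and egr1 are farthest right in T cell-like cells (fosab 36.2), those for junba and atf3 in macrophage-like cells (junba 7.82).

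With the classes in view, the members were compared between genotypes over the sums of all cells of a library. Of the 4 members that passed the filter on low counts, 3 (nr4a1, fosab and egr1) were lower in both mutants than in wild-type, and junba did not pass the test in either. In these sums, fewer cells of a type and less RNA per cell cannot be told apart. The filter also chose by level: egr1 passed it through the wild-type libraries, where it was high, and nr4a1 only through P2 libraries. The tests of these genes are not independent of that choice.

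The largest of these differences were in nr4a1 and egr1. For nr4a1 the 8 IT325 libraries held a lowest, median and highest value of 0, 18 and 62.1 CPM, and the 8 fr105 libraries 0, 4.66 and 79.2, against 10.6, 108 and 485 in the 8 wild-type libraries. For egr1 the IT325 libraries held 0, 15.9 and 90.3, and the fr105 libraries 0, 8.19 and 123, against 81.5, 132 and 406 in wild-type. The groups overlapped for both genes over all libraries. Within a set, however, every IT325 and fr105 library lay under every wild-type library for nr4a1, in P1 (at most 4.58 in IT325 and 2.84 in fr105, against at least 10.6 in wild-type) as in P2 (at most 62.1 and 79.2, against at least 181). For egr1 this held in P1, where the mutants reached at most 18.3 in IT325 and 12.2 in fr105, against at least 90.1 in wild-type, but not in P2. The P1 order of nr4a1 rests on counts near 0. Wild-type replicates 2 and 4 held 2 and 1 nr4a1 transcripts. IT325 replicate 9 and fr105 replicate 1 also held 2 and 1, in larger libraries, so that by count these libraries did not separate. The share of all genes whose libraries separate in this way is not given, here or for the separations below. The separations therefore describe the values and are not read as particular to the members.

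On the log2 scale nr4a1 was at -2.73 ± 0.69 (SE) in IT325 relative to wild-type (edgeR quasi-likelihood test, adjusted p = 0.00482) and at -3.56 ± 0.81 in fr105 (adjusted p = 0.00173). The egr1 differences were -3.06 ± 0.58 (adjusted p = 0.000237) in IT325 and -3.02 ± 0.61 (adjusted p = 0.000597) in fr105. Of all 3296 genes tested, 10.3% were lower at the same threshold (an adjusted p under 0.05) in IT325 and 12.3% in fr105, and 21.8% and 23.9% differed in either direction, so that calls were frequent in both comparisons.

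A smaller fall was measured for fosab. Lowest, median and highest values were 55.1, 106 and 342 CPM in IT325 and 14.2, 77.6 and 321 in fr105, against 158, 387 and 927 in wild-type. The groups overlapped over all libraries, but within P1 and within P2 each mutant library lay under each wild-type library. The log2 difference was -1.62 ± 0.47 in IT325 (adjusted p = 0.0122) and -1.64 ± 0.48 in fr105 (adjusted p = 0.0121). The calls on nr4a1, egr1 and fosab held with the P2 libraries alone and those on egr1 and fosab with the P1 libraries alone, where nr4a1 had too few counts for the test. In thinned cells the fosab call was lost in IT325 (-1.34, adjusted p = 0.0573) and kept in fr105 (-1.38, adjusted p = 0.0478), while nr4a1 and egr1 had too few counts there to be tested. The median share of a library's thinned cells with nr4a1 was 2.94% in IT325, 0% in fr105 and 10.7% in wild-type. For egr1 these shares were 1.98%, 0% and 13.6%, and the part of depth in both differences was not tested. Without neutrophil-like cells the fosab call was kept in IT325 (-1.91, adjusted p = 0.0301) and lost in fr105 (-1.28, adjusted p = 0.119).

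Classes with high fosab and egr1 were spread unevenly over the genotypes. T cell-like and B cell-like cells were 2 of the IT325 cells (0.557%) and 2 of the fr105 cells (0.658%), against 60 of the wild-type cells (17.4%). Those 60 cells held 44.5% of the wild-type egr1, 36.9% of the fosab and 26.3% of the nr4a1 transcripts. Cluster 16, with fosab at 9.63 per 10,000, had 18 of its 21 cells from IT325, 1 from fr105 and 2 from wild-type fish. With the T cell-like and B cell-like cells left out, a comparison added after the data were seen, the fosab difference shrank to -1.14 in IT325 (adjusted p = 0.0985) and -1.15 in fr105 (adjusted p = 0.0932) and was no longer called. The calls on nr4a1 and egr1 were kept: nr4a1 was at -2.45 in IT325 (adjusted p = 0.0102) and -3.28 in fr105 (adjusted p = 0.00304), and egr1 at -2.40 (adjusted p = 0.00693) and -2.37 (adjusted p = 0.0107).

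No fall was seen in junba. Its libraries ran over 135, 168 and 430 CPM in IT325 and 108, 236 and 450 in fr105, against 45.0, 143 and 427 in wild-type (lowest, median and highest), and the groups overlapped widely. The log2 difference was 0.24 ± 0.34 in IT325 (adjusted p = 0.67) and 0.47 ± 0.35 in fr105 (adjusted p = 0.355). Within the sets the IT325 difference took opposite signs, 1.45 with P1 alone (adjusted p = 0.0278) and -0.45 with P2 alone (adjusted p = 0.389).

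Too few counts of atf3 passed the filter for the fit over all cells, so it was compared on its own, by an exact permutation test of log2 of the CPM plus 10. Its libraries held 6.12, 19.9 and 38.5 in IT325 and 0, 12.2 and 20.4 in fr105, against 0, 36.4 and 138 in wild-type. The mean differences on this scale, -0.70 in IT325 (two-sided exact permutation p = 0.226) and -1.18 in fr105 (exact permutation p = 0.0609), did not pass the test. In P2, all IT325 libraries (at most 38.5) and all fr105 libraries (at most 18.2) lay under all wild-type libraries (at least 56.7); in P1 they overlapped. The edgeR fits that could include atf3 did call it: with the P2 libraries alone it was at -1.83 in IT325 (adjusted p = 0.00173) and -3.04 in fr105 (adjusted p = 8.19e-05), and with no filter on low counts at -1.50 (adjusted p = 0.000212) and -2.38 (adjusted p = 3.51e-08). With P2 alone, atf3 passed the filter mainly through the wild-type libraries, where it was high, so that call is no separate support. The permutation p-values here and elsewhere are unadjusted and belong to a family of 16. Those between genotypes came from arrangements of the libraries of both sets together, so that the difference between the sets counts as spread.

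Between the mutants 0 of the 4 members tested were called by edgeR or DESeq2, and 0 had an unadjusted p under 0.05, while 28.7% of all genes were called. The log2 difference of fr105 from IT325 was -0.82 for nr4a1 (adjusted p = 0.54), -0.02 for fosab (adjusted p = 0.987), 0.04 for egr1 (adjusted p = 0.98) and 0.24 for junba (adjusted p = 0.645). The atf3 difference was -0.47 (exact permutation p = 0.102), although in P2 the fr105 libraries (7.82 to 18.2 CPM) all lay under the IT325 libraries (20.9 to 38.5).

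**Figure D2:**
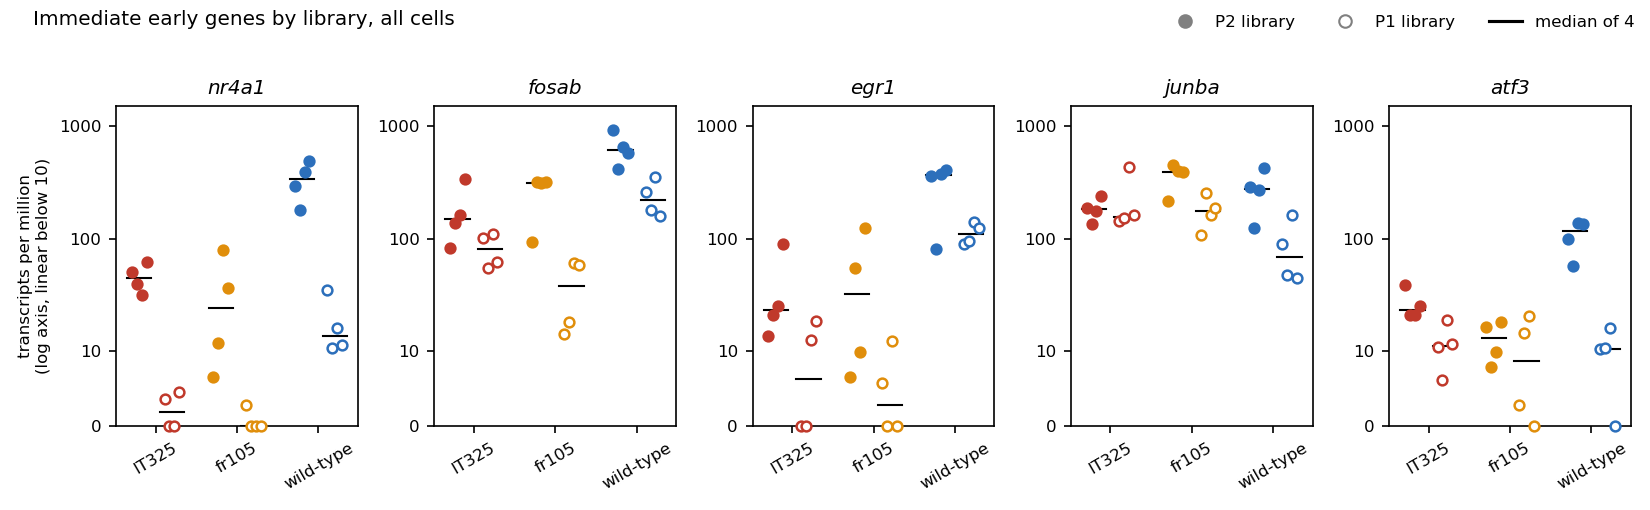
CPM of each member in each library, all cells summed, on an axis that is logarithmic above 10 and linear below it. Filled circles are P2 libraries, open circles P1 libraries and lines the median of 4 libraries; for nr4a1 and fosab every mutant point lies under every wild-type point of the same set, and the wild-type P2 points of nr4a1 are at 181 to 485.

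Other genes of the same response were read from lists, beside shares of all genes of 10.3% lower and 11.5% higher in IT325 and of 12.3% lower and 11.6% higher in fr105; whether a list differed from these shares was not tested. Of the 10 other immediate early transcription factors that were tested, 2 were lower and none higher in IT325, and 6 were lower and none higher in fr105, with a median log2 difference of -0.44 in IT325 and -0.95 in fr105, against 0.0035 and 0.022 for all genes. The antiproliferative gene btg2 was lower in both (-1.52 in IT325, -1.53 in fr105), cebpb, a myeloid transcription factor gene, was lower in IT325 (-0.88), and mycb (-2.11), a Myc family gene, klf2b (-1.19), klf6a (-0.84), ier2b (-1.22) and ier5 (-1.06) were lower in fr105. Among 12 feedback regulators, which shut the response down, 6 were lower and 1 higher in IT325, and 4 were lower and 2 higher in fr105. The MAP kinase phosphatase gene dusp1 was among the lower ones in both, at -2.36 in IT325 and -1.88 in fr105, as was nfkbiab, which encodes an inhibitor of NF-kB, at -1.63 and -0.80. In opposite directions went zfp36, whose product promotes decay of unstable messages, at -1.46 in IT325 and 0.83 in fr105.

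Of the heat shock and chaperone genes in IT325, 0 of 7 tested were called by edgeR in either direction (2 had an unadjusted p under 0.05, and 2 were called by DESeq2); 3 of 7 were lower in fr105, among them hspa5, an endoplasmic reticulum chaperone gene (-1.26). Of 7 genes of the integrated stress response, 1 was higher and 1 lower in each mutant: cebpg was higher (0.99 in IT325, 1.55 in fr105), chac1 lower in IT325 (-1.05) and atf4b lower in fr105 (-0.95). The 1 inflammatory mediator tested, the protease gene mmp9, which is also a neutrophil marker, was higher in both (3.49 in IT325, 1.48 in fr105).

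Neutrophil-like cells were numerous enough in all 24 libraries for the same comparison within a class, with 120 cells from IT325, 179 from fr105 and 187 from wild-type. Here junba was higher in both mutants than in wild-type, and fosab was lower in fr105. The class was spread over clusters that the genotypes did not share evenly: most cells of cluster 1 came from fr105, of cluster 2 from wild-type, and of clusters 4 and 11 from IT325, so that a difference within the class is also one between its clusters.

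For junba the neutrophil-like cells held a lowest, median and highest value of 110, 232 and 527 CPM in IT325 libraries and 89.3, 251 and 395 in fr105 libraries, against 25.1, 102 and 218 in wild-type libraries. Over all libraries the groups overlapped. Within P1, the IT325 libraries (110, 198, 196 and 332) and the fr105 libraries (89.3, 230, 186 and 260) all lay over the wild-type libraries (25.1, 43.9, 44.1 and 35.8), and within P2 the fr105 libraries (242 to 395) again lay over the wild-type ones (160 to 218). The log2 difference was 1.27 ± 0.35 in IT325 (adjusted p = 0.00408) and 1.04 ± 0.35 in fr105 (adjusted p = 0.0299). Of 1720 genes tested in these cells, 18.8% were higher and 18.9% lower in IT325, 8.43% were higher and 9.94% lower in fr105, and 37.7% and 18.4% were called in either direction.

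These junba differences were larger in P1, at 2.52 in IT325 (adjusted p = 0.000191) and 2.25 in fr105 (adjusted p = 0.0015), than in P2, at 0.86 (adjusted p = 0.0341) and 0.67 (adjusted p = 0.133). The difference between the sets itself was -1.68 for IT325 (edgeR interaction test, unadjusted p = 0.00452, adjusted p = 0.722). For fr105 it was -1.60 (same test, unadjusted p = 0.00684, adjusted p = 0.359). Neither passed after adjustment over all genes tested. In cells thinned to equal depth the calls were lost (0.68 in IT325 with adjusted p = 0.27, 0.96 in fr105 with adjusted p = 0.088), and the fr105 call was also lost without any one of 5 libraries (fr105 replicate 7 or wild-type replicates 1 to 4, adjusted p = 0.051 to 0.0728).

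For fosab the neutrophil-like cells held 17.4, 84.9 and 216 CPM in IT325 and 5.25, 99.2 and 211 in fr105, against 83.6, 207 and 327 in wild-type. All P2 libraries of both mutants lay under all P2 wild-type libraries (227 to 327), and the P1 libraries overlapped. The log2 difference was -0.88 ± 0.41 in IT325 (adjusted p = 0.0908) and -1.25 ± 0.42 in fr105 (adjusted p = 0.031). With the set as a term in the fit both were called, at -0.88 in IT325 (adjusted p = 0.0248) and -1.32 in fr105 (adjusted p = 0.00212). The fr105 call was lost without any one of 6 libraries (fr105 replicates 1, 2 and 3, wild-type replicates 5, 6 and 8), with adjusted p of 0.0614 to 0.081.

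Counts of nr4a1, egr1 and atf3 in neutrophil-like cells were too low for the fit and were compared by exact permutation tests. In fr105 all 3 were lower: nr4a1 ran over 0, 0 and 14.1 CPM, against 0, 29.9 and 221 in wild-type, a mean difference of -1.88 on the log2 scale with 10 added (exact permutation p = 0.00917). The egr1 values were 0, 0 and 5.87 in fr105, against 0, 17.8 and 96.1 in wild-type (difference -1.25, exact permutation p = 0.00948), and the atf3 values 0, 6.15 and 29.3, against 0, 73.9 and 308 (difference -1.73, exact permutation p = 0.037). Overlap was present for each of them over all libraries, and several wild-type P1 libraries also stood near 0. For egr1 the libraries overlapped within P2 too, where 1 wild-type library was at 0. Within P2 all fr105 libraries lay under all wild-type libraries for nr4a1 (at most 14.1, against at least 34.8). The same held for atf3 (at most 29.3, against at least 130).

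IT325 neutrophil-like cells did not pass these tests against wild-type. Their nr4a1 was at 0, 32.9 and 115 CPM (difference -0.61, exact permutation p = 0.484), egr1 at 0, 4.70 and 51.3 (difference -0.58, exact permutation p = 0.295) and atf3 at 8.91, 45.9 and 84.6 (difference -0.29, exact permutation p = 0.694). In P2, however, all IT325 libraries lay under all wild-type libraries for atf3 (51.3 to 84.6 CPM, against 130 to 308). In P1 they overlapped. The edgeR fit with the P2 libraries alone called this atf3 difference. Its passing of the filter there was not independent of the high wild-type values, so the call is no separate support. Set side by side, fr105 neutrophil-like cells had less atf3 than those of IT325 (difference -1.44, exact permutation p = 0.00575), while nr4a1 (-1.27, exact permutation p = 0.0825) and egr1 (-0.68, exact permutation p = 0.0956) did not pass. The edgeR differences of fr105 from IT325 were -0.37 for fosab (adjusted p = 0.57) and -0.23 for junba (adjusted p = 0.631), where 25.1% of genes were called.

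**Figure D3:**
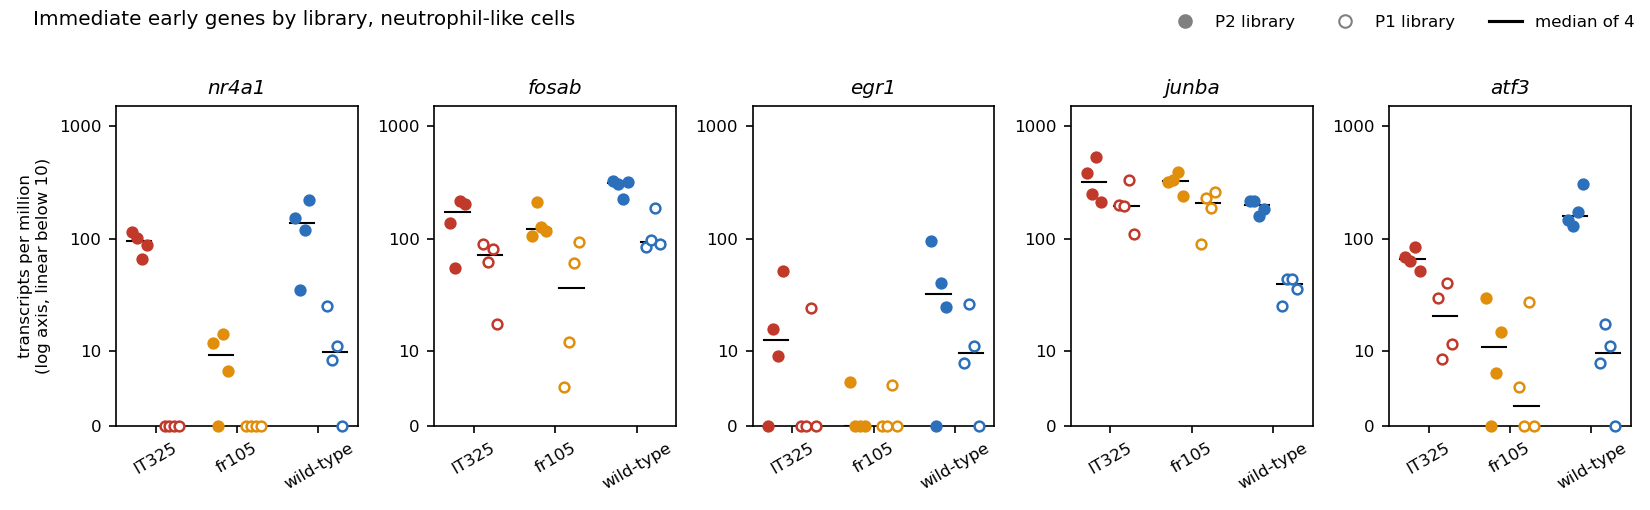
CPM of each member in the neutrophil-like cells of each library, on an axis that is logarithmic above 10 and linear below it, with filled circles for P2, open circles for P1 and lines at the median of 4 libraries. The wild-type P1 points of junba (25.1 to 44.1) lie under all other junba points, and nr4a1 is at 0 in all P1 libraries of both mutants.

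Other classes had too few libraries with enough cells for a test. In macrophage-like cells (20 from IT325, 23 from fr105, 24 from wild-type), nr4a1 was at 0.0739 per 10,000 in IT325 and 0.491 in fr105, against 4.59 in wild-type. For egr1 the values were 0.111 and 1.84, against 5.19, and for fosab 1.11 and 3.50, against 9.27. In the same cells junba was at 7.66 in IT325 and 8.78 in fr105, against 7.33 in wild-type. The sets were mixed unevenly in these sums, with 6 of the 20 IT325 cells, 12 of the 23 fr105 cells and 14 of the 24 wild-type cells from P2. Within P2 nr4a1 was at 0.233 in IT325 and 0.984 in fr105, against 7.24 in wild-type, and within P1 at 0 in both mutants, against 0.334. For junba the order turned with the set, at 6.07 in IT325 and 11.8 in fr105, against 9.82, in P2, and at 8.40 and 5.75, against 3.34, in P1. These differences were not tested.

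The second axis along which the members varied was the set. The comparison of P2 with P1 was added after the data were seen, with genotype as a term, and it had 12 libraries on each side. Over 3296 genes edgeR called 10, which is 0.303%, all of them higher in P2, and 3 of the 4 members tested were among the 10. An unadjusted p under 0.05 was found for 229 genes. As nr4a1 passed the filter on low counts only through P2 libraries (P1 libraries held at most 34.7 CPM), its call is not independent of the filter.

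In nr4a1 the difference was the largest. The P2 libraries held 50.1, 39.6, 31.4 and 62.1 CPM in IT325, against 4.58, 3.60, 0 and 0 in P1. In fr105 the P2 values were 6.49, 11.7, 79.2 and 36.5, against 2.84, 0, 0 and 0 in P1, and in wild-type they were 292, 181, 390 and 485, against 34.7, 10.6, 16.1 and 11.3. No P2 library overlapped a P1 library of its genotype, and the share of all genes that do so is not given. The log2 difference was 4.11 ± 0.36 over the 3 genotypes (adjusted p = 1.94e-08), and within the genotypes it was 4.19 in IT325 (adjusted p = 0.01), 4.31 in fr105 (adjusted p = 0.0398) and 4.05 in wild-type (adjusted p = 2.3e-05), where 0.0303%, 0.121% and 0.0607% of all genes were higher at the threshold. The P1 libraries held 2, 1, 0 and 0 nr4a1 transcripts in IT325 and 1, 0, 0 and 0 in fr105. The size of the difference in the mutants is therefore poorly fixed. In cells, nr4a1 was found in 25.8% of the 532 P2 cells, against 3.15% of the 476 P1 cells.

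The fosab difference was 1.71 ± 0.26 (adjusted p = 0.000404). The P2 values were 82.8 to 342 CPM in IT325, against 61.9, 101, 55.1 and 111 in P1, with overlap. The fr105 libraries did not overlap, with 94.1, 321, 312 and 319 in P2, against 14.2, 18.1, 61.2 and 58.1 in P1, and neither did the wild-type libraries, with 927, 418, 655 and 576, against 260, 180, 355 and 158. Within a genotype only fr105 passed the test (2.86, adjusted p = 0.000692), with 1.18 in IT325 (adjusted p = 0.494) and 1.45 in wild-type (adjusted p = 0.0945); that these differ between genotypes was not shown by the interaction test, whose adjusted p was at least 0.309 for fosab.

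For egr1 the call was less firm: the difference was 1.89 ± 0.42 (adjusted p = 0.0329), and it was lost without any one of 13 of the 24 libraries (adjusted p = 0.00684 to 0.0989 over all 24) and without the T cell-like and B cell-like cells (1.69, adjusted p = 0.29). The P2 libraries held 13.5 to 90.3 CPM in IT325, against 0 to 18.3 in P1, and 6.48 to 123 in fr105, against 0 to 12.2 in P1. In wild-type they held 364, 81.5, 378 and 406, against 90.1, 95.4, 140 and 124, so that 1 P2 library lay within the P1 range.

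The difference in junba was 0.75 ± 0.26 (adjusted p = 0.486). Its P2 libraries held 135 to 237 CPM in IT325, against 144 to 430 in P1, 217 to 450 in fr105, against 108 to 254, and 124 to 427 in wild-type, against 45.0 to 161. One P1 library, IT325 replicate 12 at 430, weighed on this value: without it the difference was 0.97 (adjusted p = 0.0438). By the exact permutation test within genotypes, atf3 was higher in P2 (mean difference 1.24 on the log2 scale with 10 added, exact permutation p = 0.00049). In wild-type its P2 libraries held 56.7 to 138 CPM, against 10.4, 10.6, 16.1 and 0, and in IT325 38.5, 21.1, 20.9 and 25.4, against 11.5, 10.8, 6.12 and 19.0, both without overlap. The fr105 values overlapped (16.2, 7.82, 9.89 and 18.2, against 2.84, 14.5, 20.4 and 0).

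The other 7 genes called between the sets were the immediate early genes ier2b (1.68, adjusted p = 3.14e-05), junbb (1.76, adjusted p = 0.00107) and btg2 (1.04, adjusted p = 0.0154), the feedback regulators dusp1 (1.24, adjusted p = 1.41e-05) and socs3a (adjusted p = 0.0109), ddit3, the CHOP gene of the integrated stress response (1.1, adjusted p = 0.0108), and pim1, a kinase gene outside the lists (0.82, adjusted p = 0.0115). The last of these was named after its value was seen. By list, 3 of 10 other immediate early transcription factors, 2 of 12 feedback regulators and 1 of 7 genes of the integrated stress response were higher, beside 0.303% of all genes. Called were 0 of 7 heat shock genes, 0 of 5 upstream kinases and factors and 0 of 1 inflammatory mediators, and 0 of these had an unadjusted p under 0.05. At that share, 0 calls are usual for so few genes. Within wild-type the inflammatory mediator, mmp9, was at 3.03 (edgeR, unadjusted p under 0.05, not called). In IT325 it was at 0.19 and in fr105 at -0.90.

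**Figure D4:**
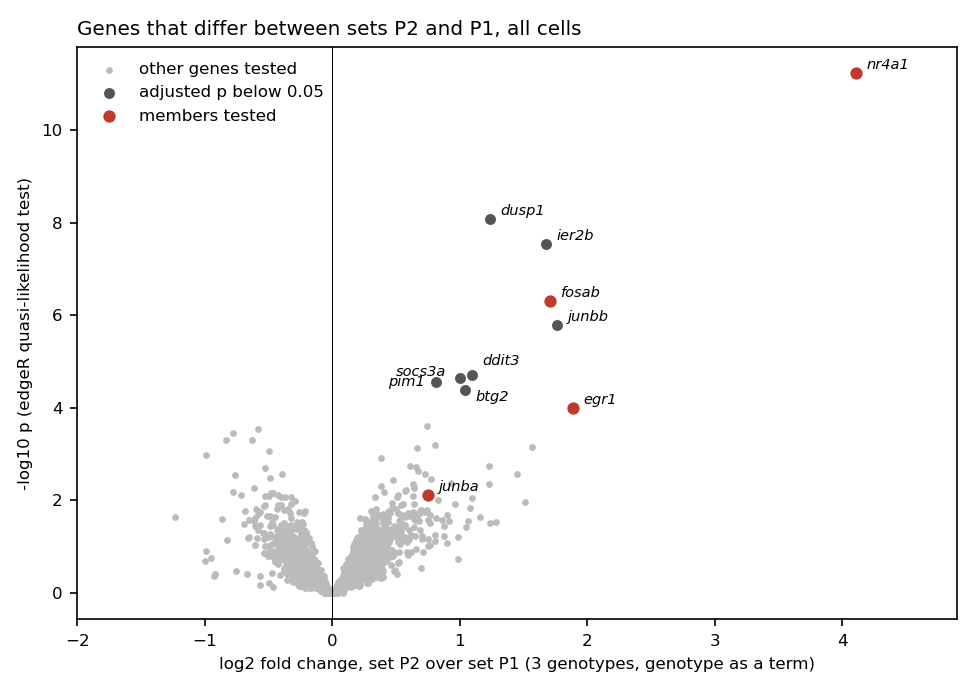
Each point is 1 of the 3296 genes tested: the log2 fold change of set P2 over set P1 on the horizontal axis and minus log10 of the edgeR p-value on the vertical axis. The 10 called genes are named and all lie right of 0; nr4a1 is at 4.11 and junba, a member that was not called, at 0.75.

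Several properties of the libraries were set beside this difference. The share of mitochondrial messages in a library had a range of 2.78% to 5.19% in P2 and of 2.84% to 4.75% in P1, and the median cell of a library held 5361 transcripts in P2 and 5052 in P1 (12 libraries each). The emptier 96 barcodes of a library held a median of 1.39% of its transcripts in P2 and 1.35% in P1. By genotype this share was 0.99% in P2 and 1.22% in P1 for IT325, 1.46% and 1.02% for fr105, and 1.51% and 2.84% for wild-type. The median cell held 6686 transcripts in P2 and 5602 in P1 for IT325, 5361 and 5320 for fr105, and 3822 and 3515 for wild-type. Among wild-type libraries the B cell-like share had a median of 15.4% in P2 and 6.44% in P1, and the neutrophil-like share 49.0% in P2 and 61.6% in P1; without the lymphoid classes nr4a1 was still called at 3.85 (adjusted p = 1.97e-07) and fosab at 1.71 (adjusted p = 0.00226). Without neutrophil-like cells the calls were not kept: edgeR called 0 of 1748 genes, with 100 at an unadjusted p under 0.05 and DESeq2 not run, fosab was at 1.73 (adjusted p = 0.13) and egr1 at 1.73 (adjusted p = 0.445), and nr4a1 had too few counts there to be tested. What was done differently for P1 and P2 is not given in the sources used here, and whether handling, sort, day or fish had a part in the difference was not tested.

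Within neutrophil-like cells edgeR called 8 of 1720 genes (0.465%), again all higher in P2, and 77 had an unadjusted p under 0.05. Both members that could be fitted were called: fosab at 1.53 ± 0.27 (adjusted p = 0.000639) and junba at 1.06 ± 0.22 (adjusted p = 0.00559). The others were dusp1 (1.48), ier2b (2.1), socs3a (1.70), pim1 (1.09), cebpb (0.67) and ddit3 (1.21), and 6 of the 8 were also among the 10 genes called over all cells. In wild-type neutrophil-like cells, junba stood at 218, 217, 160 and 185 CPM in P2, against 25.1, 43.9, 44.1 and 35.8 in P1, a log2 difference of 2.39 (adjusted p = 0.00292, where 0.64% of genes were higher in P2).

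Neutrophil-like nr4a1 was also higher in P2 (mean difference 2.26, exact permutation p = 2.92e-05), and so was atf3 (1.70, exact permutation p = 0.000531), whereas egr1 did not pass (0.58, exact permutation p = 0.126). The nr4a1 values were 115, 102, 65.8 and 87.9 CPM in P2 IT325 libraries, against 0 in all 4 P1 libraries. In fr105 they were 11.7, 0, 14.1 and 7.32, against 0 in all 4, and in wild-type 154, 34.8, 120 and 221, against 25.1, 8.77, 11 and 0. For atf3 the P2 wild-type libraries stood at 147, 130, 173 and 308, against 8.36, 17.5, 11 and 0 in P1.

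Wild-type cells were numerous enough to set the sets side by side in further classes, as sums without a test. The 15 T cell-like cells of P2, from 3 libraries, held fosab at 46.3 per 10,000 (95% Poisson interval 40.2 to 52.9), against 14.8 (10.1 to 20.9) in the 8 of P1, also from 3 libraries. In the same cells egr1 was at 25.9 (21.5 to 31.0) in P2, against 3.70 (1.60 to 7.30) in P1, and nr4a1 at 14.2 (10.9 to 18), against 0, which allows up to 1.71. Macrophage-like cells differed in the same direction in every member: nr4a1 was at 7.24 in P2, against 0.334 in P1, fosab at 13.1, against 3.12, egr1 at 6.82, against 2.56, junba at 9.82, against 3.34, and atf3 at 2.64, against 0.446. B cell-like cells differed in nr4a1 (4.98 in P2, against 0 in P1) while the intervals of fosab overlapped (8.52, with an interval of 6.58 to 10.9, against 11.4, with 7.87 to 15.9).

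**Figure D5:**
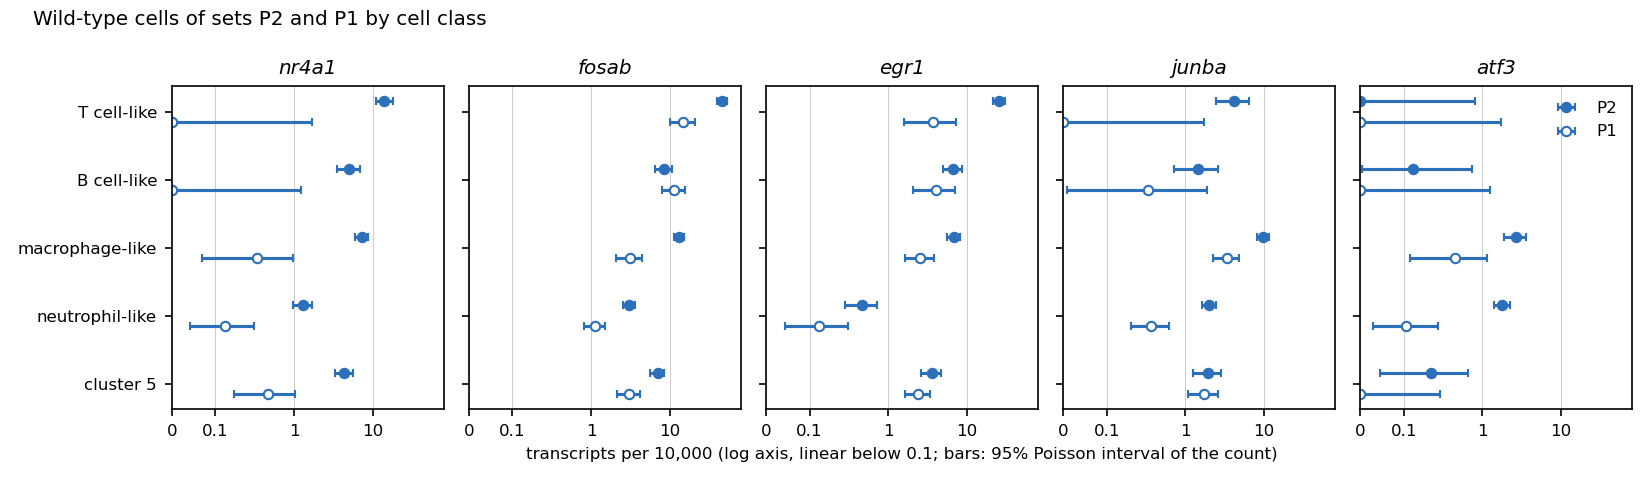
Level of each member in wild-type cells of set P2 (filled) and set P1 (open), in transcripts per 10,000 summed over the cells of a class, with 95% Poisson intervals of the count that leave out the spread between libraries. The axis is logarithmic above 0.1 and linear below it. For nr4a1 the filled point lies right of the open one in all 5 rows (14.2 against 0 in T cell-like cells), while for fosab in B cell-like cells the order is the other way round.

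The number of members per cell followed the same lines. In cells thinned to equal depth, 3 or more members were found in 0% to 8.16% of the cells of a P2 IT325 library and in no cell of P1, and in 0% to 8.11% of a P2 fr105 library and in no cell of P1. In wild-type, the share was 10.9% to 29.2% in P2 libraries, against 2.08% to 9.09% in P1. Only 11.1% to 45.7% of the cells of a P2 wild-type library held none of the 5, against 39.4% to 72.3% in P1.

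No interaction of genotype and set was called by edgeR for the 4 members tested over all cells (0 of 12 tests, 4 with an unadjusted p under 0.05). The smallest p was that of junba between IT325 and wild-type over all cells, with a difference of -1.89 between the sets (adjusted p = 0.513). Over all genes, 0 (IT325 against wild-type; 0% of 3296, with 233 at an unadjusted p under 0.05), 31 (fr105 against wild-type; 0.941%) and 17 (fr105 against IT325; 0.516%) were called. For nr4a1, the interaction was 0.15 for IT325 and 0.27 for fr105 relative to wild-type (adjusted p = 0.963 and 0.912). With nr4a1 counts near 0 in mutant P1 libraries, these values do not show that the genotypes were alike.

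Across the 24 libraries, taken as deviations from the genotype means of log2 of CPM plus 10, the genes most like each member were taken from 3297. Closest to nr4a1 were dusp1 (Pearson r = 0.91), atf3 (0.80), calm1a, ier2b and junbb. Closest to fosab were ier2b (0.81), dusp1, socs3a, egr1 and junbb, and closest to egr1 were junbb (0.79), fosab, tsg101b, tpm1 and socs3a. Closest to junba were SNRPD1 (0.77), SMOX, chac1, atf3 and PRPS1L1, and closest to atf3 were nr4a1 (0.80), hapstr1b, CLTA, junba and tamalin. The libraries share the set in these values: with deviations taken within sets as well, nr4a1 had r = 0.62 with dusp1, 0.51 with calm1a, 0.43 with junbb, 0.21 with atf3 and 0.034 with ier2b. On that scale fosab had r = 0.55 with ier2b and 0.17 with junbb, and egr1 had 0.62 with junbb.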

How the data were processed

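Single WKM cells were measured by mCEL-Seq2, a plate method with 3′ tags and unique molecular identifiers (UMIs). The deposited values are estimated counts, made by the authors: reads were demultiplexed with bcl2fastq 2.17.1.14 and aligned with BWA 0.6.2-r126 per the labels, to Ensembl zebrafish transcript models with revised 3′ ends and not to a genome, UMIs of 6 bases were counted per gene and barcode, and each UMI number was corrected for collisions, so that values are not whole. Each library file has 192 barcodes, of which the fuller 96 were used. No other per-sample columns were present (0). Barcodes repeat between libraries because they share one barcode set, and doublets were not called.

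Barcodes with at least 1500 transcripts were kept, spike-ins were left out, and 17966 gene IDs were matched to symbols; the members are listed there as NR4A1, FOS, egr1, JUNB and ATF3, and zebrafish names were used in the text. Cells were clustered with leidenalg 0.10.2 on a nearest-neighbour graph (2000 variable genes, 30 components, resolution 1), leaving out the members and the other immediate early transcription factors. Sums per library, rounded to whole numbers, were tested with edgeR 4.0.16 (R 4.3.3; TMM, filterByExpr, quasi-likelihood test), with Benjamini-Hochberg adjustment over all genes tested and all 24 libraries in a fit; SE is the log2 difference divided by the root of F. Members under the filter were tested by exact permutation, two-sided. Percentages with a gene were also taken in cells thinned to 1500 transcripts. Intervals are 95% exact Poisson intervals.

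Members, lists and markers were chosen with earlier results of these data known. Named genes were the 5 members, list genes with an adjusted p under 0.05 (at most 20 a comparison), and the 5 genes most like each member. On simulated counts for IT325 against wild-type (3253 genes over all cells, 1768 in neutrophil-like cells), 100% of 4-fold changes were recovered in both, and 69.6% and 87.5% of 2-fold changes. These changes were placed only in genes with higher counts, with a single spread for all genes and no difference between the sets. The recovery therefore does not hold for the members, which are sparse and differ between the sets. Alternatives were DESeq2 1.42.0, other scalings, no filter, other depth limits, each set alone, a replicate block and leaving out each library. Sequences of the members were not used here.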

Additional observations from a re-analysis of the deposited data

Results flagged for a closer look

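In 7 of 30 groups of 8 libraries (5 members, 3 genotypes, all cells and neutrophil-like cells), 1 library stood apart from the other libraries of its genotype by Dixon's test. Chance gives about 1 in 20 where values come from a single normal distribution. These were CPM without a log scale, each group joined P1 and P2, and neutrophil-like cells are part of all cells. The 7 of 30 therefore cannot be compared with that rate. Over all cells these were fr105 replicate 7 for nr4a1 (79.2 CPM), IT325 replicate 4 for fosab (342) and egr1 (90.3), fr105 replicate 8 for egr1 (123) and IT325 replicate 12 for junba (430). In neutrophil-like cells they were IT325 replicate 4 (51.3) and wild-type replicate 5 (96.1), both for egr1. Of these, the libraries high in nr4a1, fosab and egr1 belong to P2 and the one high in junba to P1.

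Transcripts of the members were also found on the barcodes outside the fuller 96 of a library, which the comparisons left out, above the 3 counts that a count of 0 allows: 17.0 of nr4a1, 24 of fosab, 10.001 of egr1 and 24 of junba over 24 libraries. As CPM of those barcodes this is 162 for nr4a1, 229 for fosab, 95.3 for egr1 and 229 for junba. Where these transcripts came from was not tested.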

How the results depend on the processing

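Over all cells, the differences of nr4a1, fosab and egr1 from wild-type kept their direction in every alternative that gave a value, except nr4a1 in IT325 under the replicate block. That block, the fit with the replicate number as a term, compares IT325 replicates 1 to 4 (P2) with wild-type replicates 1 to 4 (P1), since only these numbers are shared. By the block IT325 against wild-type was at 1.38 for nr4a1, -0.10 for fosab and -1.50 for egr1 over all cells and at 0.59 for fosab in neutrophil-like cells. The fr105 against IT325 values by the block were -5.02 for nr4a1, -1.88 for fosab, -1.71 for egr1 and -0.39 for junba over all cells, and -1.96 for fosab and -1.30 for junba in neutrophil-like cells. Of these, nr4a1, fosab over all cells and both neutrophil-like values were called. They mix allele with set in the same way, since replicates 1 to 4 are P1 in fr105 and P2 in IT325. The numbers did not pair the libraries: same-numbered libraries of different genotypes had a mean correlation of 0.0037, and 1 of 16 such pairs was over 0.1.

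Over all cells, fosab in IT325 was no longer called in thinned cells (-1.34) or without T cell-like and B cell-like cells (-1.14), nor in fr105 without those cells (-1.15) or without neutrophil-like cells (-1.28). Tested by permutation in the report, atf3 was called by edgeR with no filter (-1.50 in IT325, -2.38 in fr105) and with P2 alone (-1.83 and -3.04). With P2 alone it passed the filter mainly through the wild-type libraries, where it was high. The call in IT325 P1 against all wild-type libraries (-2.25) mixed genotype with set, as P1 values overlapped. For junba in IT325 the value was 1.45 with P1 alone, -0.45 with P2 alone and -0.26 without neutrophil-like cells. Between the mutants, where no member was called in the reported comparison, signs turned: egr1 was at -0.76 with P1 alone, -0.0019 with the set as a term, -0.27 without the kidney tubule-like and mitochondrial clusters and -0.29 without both kidney clusters and the mitochondrial one; fosab was at 0.31 with P2 alone, 0.029 in cells with at least 3000 transcripts, 0.20 with scaling by total transcripts alone and 0.64 without neutrophil-like cells; junba was at -0.45 with P1 alone. Leaving out 1 library gave -0.92 to 0.71 for egr1 and -0.28 to 0.31 for fosab.

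In the comparison of P2 with P1 over all cells, egr1 was not called with scaling by total transcripts alone (1.88), in cells with at least 3000 transcripts (1.77), without T cell-like and B cell-like cells (1.69) or without neutrophil-like cells (1.73), and without 1 library it was at 1.70 to 2.08; the call was lost without IT325 replicates 4, 10 or 11, fr105 replicates 2, 3, 4 or 6, or wild-type replicates 1, 2, 4, 5, 7 or 8. Without neutrophil-like cells fosab was not called (1.73), and with no filter junba was (0.78); without 1 library junba was at 0.63 to 0.97.

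In neutrophil-like cells, fosab in IT325 was called with no filter (-0.82) and with the set as a term (-0.88), and without 1 library it was at -1.11 to -0.68, called without IT325 replicate 3 or 4. In fr105 fosab was not called by DESeq2 (-1.20), with P1 alone (-1.75) or in cells with at least 3000 transcripts (-1.25), and was at -1.54 to -1.03 without 1 library. For junba the value was 0.68 in IT325 and 0.96 in fr105 in thinned cells, neither called, and 0.67 in fr105 with P2 alone, not called; without 1 library it was at 0.88 to 1.27 in fr105. The junba difference of fr105 from IT325 was 0.28 in thinned cells. With P2 alone atf3 was called in IT325 (-1.38), and nr4a1 in fr105 against IT325 with P2 alone (-3.47) and with no filter (-3.34). In the fits of P2 alone, atf3 and nr4a1 passed the filter through groups where they were high. The cause of these changes was not tested.

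Counts of called genes moved by over 1.5 times in some alternatives. IT325 against wild-type gave 1538 genes over all cells with no filter, 408 with P1 alone, 352 with P2 alone, 195 in thinned cells, 401 with the block and 159 without neutrophil-like cells; fr105 against wild-type gave 1549 with no filter, 231 with P1 alone, 234 in thinned cells and 273 without neutrophil-like cells; fr105 against IT325 gave 1580, 208, 255 and 268. In neutrophil-like cells the counts were 992, 382 (P1), 339 (P2), 132 (thinned) and 385 (block) for IT325 against wild-type, 560, 146 (P1) and 78 (thinned) for fr105 against wild-type, and 140 (P1), 270 (P2), 84 (thinned) and 233 (block) for fr105 against IT325. P2 against P1 gave 88 with no filter, 4 in thinned cells and 0 of 1748 without neutrophil-like cells by edgeR (100 at an unadjusted p under 0.05; nr4a1 was under the filter), and in neutrophil-like cells 13 with no filter and 3 in thinned cells. Scaling by total transcripts alone gave 273 higher and 587 lower genes for IT325 against wild-type, with 380 and 339 in the comparison as reported, and 707 and 281 for fr105 against IT325, with 504 and 443. Low counts limited the tests: atf3 over all cells and nr4a1, egr1 and atf3 in neutrophil-like cells stayed under the filter.
The comparison of P2 with P1 and those without T cell-like and B cell-like cells, without neutrophil-like cells or without both kidney clusters were chosen after seeing the data.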
